A study of Homo sapiens with 4 samples.

Results

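LDB1 is the adaptor of a transcription complex that joins DNA-binding proteins of blood cells. The genes described here encode that adaptor, the subunits that sit on it and their nearest paralogues. They were taken by symbol and are 10 of the 28412 genes in the deposited table: LDB1, the LIM-only genes LMO2 and LMO4, the basic helix-loop-helix (bHLH) genes TAL1 and LYL1, the E-protein genes TCF3 and TCF12, and SSBP2, SSBP3 and SSBP4, which encode single-stranded DNA-binding proteins. RNA-seq was performed on 4 libraries of human cells labelled NB4, an established acute promyelocytic leukemia line, to find which genes respond to loss of LDB1. The 2 sh-NC libraries came from cells with the control vector and carried the genotype label of a control. The 2 sh-LDB1 libraries came from cells with an shRNA against LDB1. By the study's methods both groups carried the lentiviral vector pLKO.1 and were selected with puromycin. Which of the study's LDB1 shRNAs was sequenced was not given, so the sh-LDB1 group stands for an unnamed hairpin. The labels did not say whether replicates came from separate cultures, so p-values measure only the spread between these libraries, which may be technical.

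LDB1 binds no DNA itself. Its LIM-interaction domain holds LIM-only proteins such as LMO2, and LMO2 in turn holds a dimer of a class II bHLH protein, TAL1 or LYL1, with an E protein, so that the whole assembly reaches E-box and GATA sites through bHLH and GATA proteins. LDB1 also joins with itself, which can bring distant enhancers to promoters, and SSBP proteins bind it and shield it from degradation. In blood the complex is best known for stem cell maintenance and for the red cell programme, and LMO2, TAL1 and LYL1 were found at chromosome breaks in T cell leukemia.

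Before the results, the cell label was set against marker genes. Of 9 promyelocytic and granulocytic markers, 7 had values here, and their summed level in the sh-NC libraries was only 11.7 to 12.6 FPKM (a read density per gene length and depth, so that levels of genes of unequal length can be compared). ELANE, neutrophil elastase, was at 0 in both sh-NC libraries. MPO and CTSG were not analysed here. The 10 erythroid markers, globins among them, summed to 3941 to 4098 FPKM in sh-NC. The data thus went against a promyelocytic profile, and the cells are called only by their label. Read numbers recovered from the FPKM steps put the depth at 14540172 to 16838888 reads per library. Over the 13300 genes tested, whose mean over the 4 libraries was 1 FPKM or more, log2 levels of replicates correlated with r = 0.985 in sh-NC and 0.984 in sh-LDB1, against 0.856 to 0.863 between groups (across genes, which are not independent replicates).

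Transcripts of most complex genes were lower in LDB1-knockdown cells, not only those of the targeted gene. LDB1, LMO2, TAL1 and LYL1 fell below a fold of 0.5, TCF3, SSBP4, TCF12 and SSBP3 fell by less, and LMO4 and SSBP2 did not pass the test. Summed over the 9 members other than LDB1, the level went from 289 ± 5.35 to 132 ± 1.58 FPKM (SD, n = 2 libraries a group, as for every mean here). By limma on log2(FPKM + 1), 8 of 10 members were lower and 0 higher at an adjusted p below 0.05, where 37.4% of all genes tested were lower and 29.9% higher, 67.4% in either direction. With the fold threshold added, 4 of 10 were lower and 0 higher, where 10.3% of all genes were lower and 9.5% higher. The groups did not overlap for 9 of 10 members, all lower in sh-LDB1, a pattern that 46.3% of all genes shared. The median log2 fold change of the members was -0.84, and that of all genes tested was -0.078, with quartiles at -0.57 and 0.43. The member counts and the member median include LDB1, whose fall was set in advance by the knockdown. When libraries were scaled by summed FPKM, by total reads or by quantiles, SSBP3 no longer passed and SSBP2 turned to the other sign.

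Erythroid transcripts moved with the members. The 10 erythroid markers summed to 349 to 386 FPKM in sh-LDB1. All 10 were lower past the fold threshold, where 10.3% of all genes tested were. EPOR, the erythropoietin receptor, passed it narrowly (log2 fold change -1.04) and was at -0.94 to -0.88 under the 3 other scalings, short of that threshold. The 7 granulocytic markers summed to 37.9 to 41.4 FPKM there, with CSF3R, LYZ and PRTN3 higher past the threshold. CEBPE had the opposite sign, at 1.55 and 1.27 FPKM in sh-NC against 0.924 and 0.340 FPKM in sh-LDB1 (log2 fold change -0.58, limma adjusted p = 0.081). T cell markers, nearly all of it CD3D, summed to 20.1 to 23.3 FPKM in sh-NC and to 43.0 to 46.3 FPKM in sh-LDB1, whereas 3 megakaryocytic markers summed to at most 2.64 FPKM and 2 B cell markers to at most 1.91 FPKM in any library. The part of such shifts in the changes of the complex genes was not tested. In bulk RNA, fewer cells of a type and less RNA per cell cannot be told apart.

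**Figure D1:**
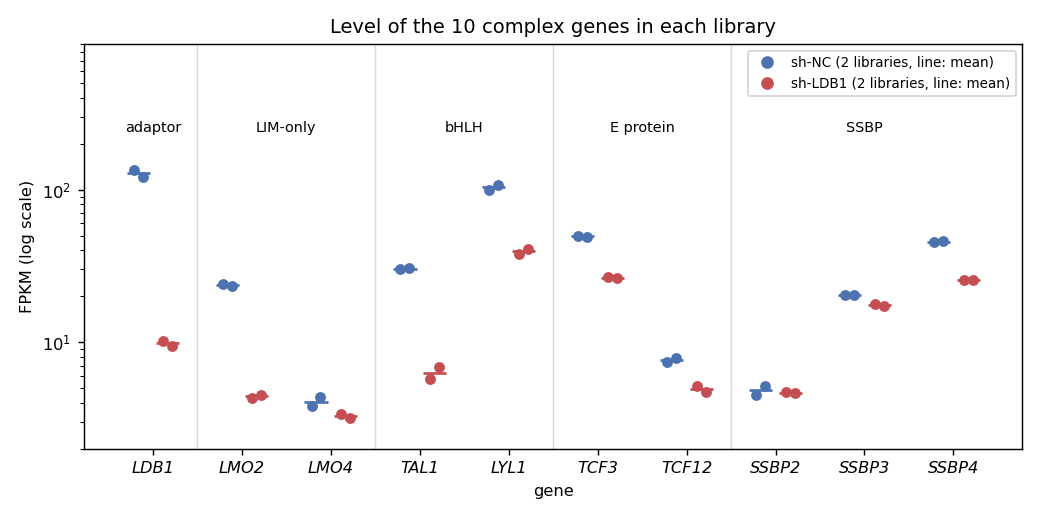
FPKM of each complex gene in every library on a log axis, grouped by role, with points for the 2 sh-NC and 2 sh-LDB1 libraries and a line at each group mean. The groups are far apart for LDB1, LMO2, TAL1 and LYL1, close for LMO4 and SSBP3, and overlap for SSBP2.

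LDB1 (ENSG00000198728, chr10:102106489-102120368, minus strand, like all gene positions here from GENCODE 44 on GRCh38), the gene the shRNA targets, had 135 and 120.1 FPKM in sh-NC against 10.2 and 9.47 FPKM in sh-LDB1. Both knockdown libraries were far below both controls, so the target gene fitted the labels. The level left was 7.73% of the control mean (128 ± 10.6 to 9.86 ± 0.546 FPKM). The log2 fold change was -3.56 (SE 0.0765, limma adjusted p = 6.93e-05), the 8th lowest value among the 13300 genes tested. Between 400 and 6099 reads stood behind LDB1 in each library.

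LMO2 (ENSG00000135363, chr11:33858576-33892076, minus strand) encodes the bridging LIM-only protein that links LDB1 to the bHLH dimer and to GATA proteins. Its levels were 24.2 and 23.2 FPKM in sh-NC and 4.34 and 4.51 FPKM in sh-LDB1. The knockdown libraries were thus close together and well apart from the controls. LMO2 was left at 18.7% of control, with a log2 fold change of -2.19 (SE 0.0532, limma adjusted p = 7.41e-05), and had at least 212 reads in each library.

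LMO4 (ENSG00000143013, chr1:87328880-87348923, plus strand), a paralogue that binds LDB1 through the same kind of LIM domains and is found in many epithelial and neural tissues, was the scarcest member. It had 3.80 and 4.35 FPKM in sh-NC and 3.37 and 3.21 FPKM in sh-LDB1. The knockdown values were both below the controls, but the gap between the groups was smaller than the distance between the controls themselves. Its log2 fold change was -0.24 (95% interval -0.47 to -0.010), and with a limma adjusted p of 0.063 it did not pass. Its difference from the LMO2 response can be read within libraries: log2(LMO2/LMO4) was 2.67 and 2.41 in sh-NC but 0.36 and 0.49 in sh-LDB1.

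TAL1 (ENSG00000162367, chr1:47216290-47232225, minus strand) encodes the class II bHLH protein also called SCL. It had 30.2 and 30.5 FPKM in sh-NC and 5.72 and 6.92 FPKM in sh-LDB1. The controls were nearly equal, and both knockdown libraries were far below them. TAL1 was left at 20.8% of control, a log2 fold change of -2.10 (SE 0.0916, limma adjusted p = 0.000154). LYL1 (ENSG00000104903, chr19:13099033-13103161, minus strand), its closest paralogue, which can take its place beside E proteins, was the more abundant of the pair. It had 99.8 and 107 FPKM in sh-NC, below LDB1, and 38.0 and 40.7 FPKM in sh-LDB1, above every other member. Both knockdown libraries were far below the controls. LYL1 was left at 38.1% of control, with a log2 fold change of -1.37 (SE 0.0584, limma adjusted p = 0.000151).

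The start regions of TAL1 and LYL1 are shown because, of those searched, only these held the core letters of a GATA site. RefSeq start sites on GRCh38.p14 were found for 8 of the 10 members, in 18 windows from 250 bases before to 50 bases after the start; LMO2 and SSBP4 had no entry. GATAA, the core that GATA proteins bind, was searched on both strands and lay in 2 of the 18 windows, where 22.7% of all 35116 windows held it. Both windows held it 2 times, as did 4.80% of all windows. At TAL1 the matches were at -67 to -63 and -35 to -31 from the start, in a window upstream of the gene that overlapped no annotated gene. At LYL1 they were at -27 to -23 and at 3 to 7. There the 250 bases before the start lie within the annotated LYL1 gene and overlap an exon of it. Whether the printed stretch itself is exonic was not examined. Both sequences read 5′ to 3′ along the gene's own strand, and capitals mark TTATC, which is GATAA on the opposite strand.
TAL1 promoter, chr1:47232336-47232585, minus strand: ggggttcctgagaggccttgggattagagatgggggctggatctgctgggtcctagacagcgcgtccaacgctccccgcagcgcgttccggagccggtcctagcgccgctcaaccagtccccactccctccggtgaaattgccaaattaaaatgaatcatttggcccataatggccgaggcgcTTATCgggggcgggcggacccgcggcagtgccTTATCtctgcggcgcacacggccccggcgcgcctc
LYL1 start region, chr19:13102869-13102898, minus strand: tcagccaggctccTTATCaggcgcggccag
The E-box letters CANNTG, a palindrome that bHLH dimers bind, lay in 7 of the 18 windows, against 68.7% of all windows. The 18 windows are not separate regions, since some genes have several and those of SSBP2 overlap in part. Counts of windows therefore give such genes more weight. Such letter matches describe the sequence and are not binding data.

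TCF3 and TCF12 encode E proteins, the partners that class II bHLH proteins need to bind DNA. TCF3 (ENSG00000071564, chr19:1609291-1652615, minus strand) had 49.9 and 48.7 FPKM in sh-NC and 26.5 and 26.3 FPKM in sh-LDB1. Its replicates were nearly equal in both groups, and it was left at 53.7% of control (log2 fold change -0.87, SE 0.0405, limma adjusted p = 0.00017). TCF12 (ENSG00000140262, chr15:56918623-57299281, plus strand), also called HEB, had 7.46 and 7.88 FPKM in sh-NC and 5.17 and 4.72 FPKM in sh-LDB1. It was a smaller fall from a lower level, also without overlap, to 64.4% of control (log2 fold change -0.55, SE 0.0696, limma adjusted p = 0.00258).

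The 3 SSBP genes encode proteins that bind LDB1 and keep it stable, and they differed from each other. SSBP4 (ENSG00000130511, chr19:18418864-18434562, plus strand), the most abundant, had 45.1 and 45.9 FPKM in sh-NC and 25.6 and 25.4 FPKM in sh-LDB1. It fell to 56.1% of control with a log2 fold change of -0.81 (SE 0.0398, limma adjusted p = 0.000189), a change much larger than the spread of its replicates. SSBP3 (ENSG00000157216, chr1:54225432-54413479, minus strand) had 20.2 and 20.4 FPKM in sh-NC and 17.8 and 17.1 FPKM in sh-LDB1. This was a small drop to 86.0% of control (log2 fold change -0.21, SE 0.0455, limma adjusted p = 0.015). It did not pass without sh-LDB1 replicate 1 (adjusted p = 0.0586) or without sh-LDB1 replicate 2 (adjusted p = 0.0999).

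SSBP2 (ENSG00000145687, chr5:81412804-81751797, minus strand) was the only member whose groups overlapped, with 4.50 and 5.16 FPKM in sh-NC and 4.73 and 4.62 FPKM in sh-LDB1. Both knockdown values lay between the controls. The log2 fold change was -0.037 with a 95% interval of -0.25 to 0.18 (limma adjusted p = 0.71), an interval that does not reach the SSBP4 value. The sources used here did not say whether counting used strand. Exons of TAL1, SSBP3 (with MRPL37 and SSBP3-AS1) and SSBP4 (with ISYNA1) overlap exons of genes on the opposite strand over 845, 108 and 175 bases, where reads could not be assigned without strand.

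**Figure D2:**
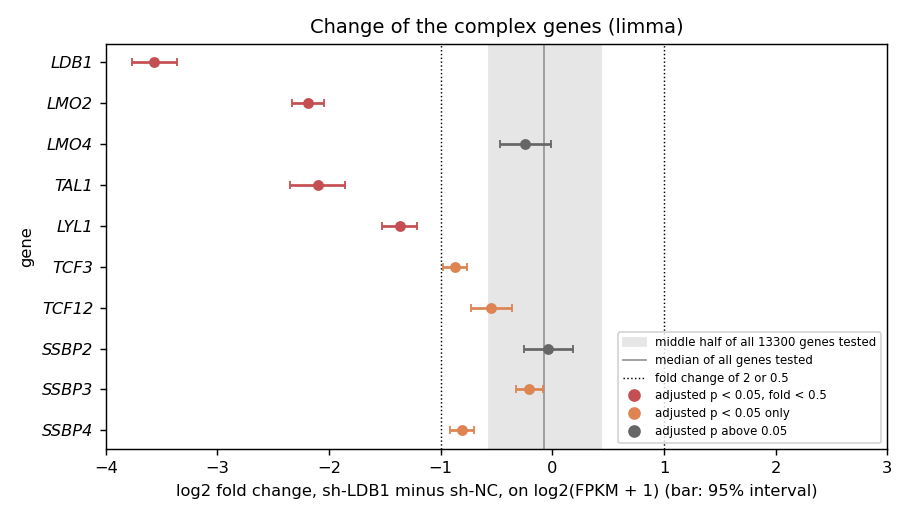
Log2 fold change of each complex gene, sh-LDB1 minus sh-NC, on the log2(FPKM + 1) scale, with limma 95% intervals, the middle of all 13300 genes tested (shaded between the quartiles) and dotted lines at folds of 2 and 0.5. LDB1, LMO2, TAL1 and LYL1 lie below the lower dotted line, while the interval of SSBP2 spans 0 and its sign changes with the scaling of the libraries.

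Because FPKM is per length, the makeup of each subunit could be read within a library, where the scaling of the libraries plays no part. LMO2 made up 86.4% and 84.2% of the summed LMO2 and LMO4 level in sh-NC but 56.3% and 58.4% in sh-LDB1, a difference of -28.0 points between the group means. TAL1 made up 23.2% and 22.2% of the TAL1 and LYL1 level in sh-NC but 13.1% and 14.5% in sh-LDB1 (-8.92 points). The LIM-only and bHLH transcripts thus came more from LMO4 and LYL1 in the knockdown libraries, although neither gene rose. TCF3 moved least, from 87.0% and 86.1% of the E-protein level to 83.7% and 84.8% (-2.27 points).

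Within the SSBP genes the order stayed the same while the shares came closer. SSBP4 went from 64.6% and 64.3% to 53.2% and 53.9%, and SSBP3 from 29.0% and 28.5% to 37.0% and 36.3%. SSBP2 went from 6.45% and 7.22% to 9.83% and 9.80%. The groups did not overlap for any of these 6 shares. The exact two-sided permutation p was 0.333 for each (also 0.333 after Benjamini-Hochberg adjustment over the 6), the smallest that this test allows with 2 against 2 libraries, so it could not call any share.

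**Figure D3:**
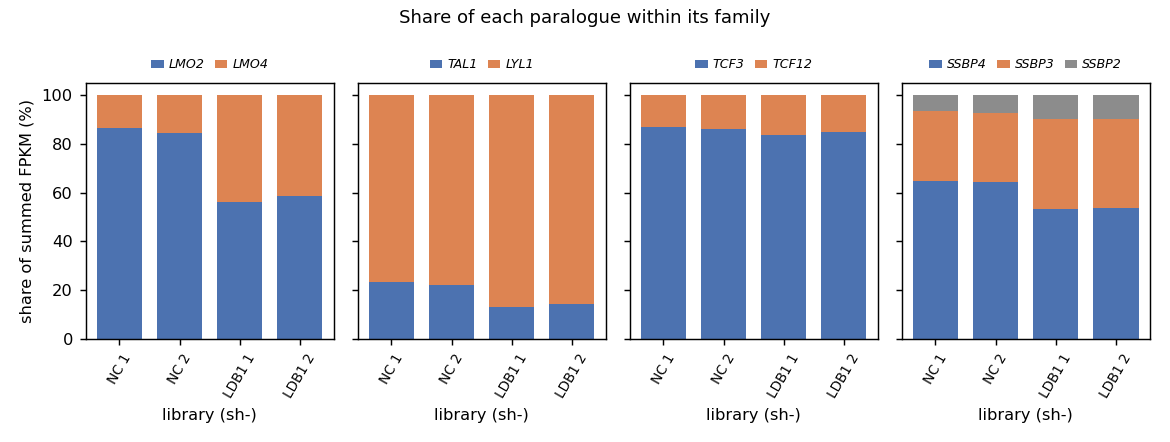
Stacked bars give each paralogue's share, in percent, of the summed FPKM of its family in each of the 4 libraries (NC for sh-NC, LDB1 for sh-LDB1, with the replicate number). LMO2 takes 84.2% or more of its bar in sh-NC and at most 58.4% in sh-LDB1, and the TCF3 share differs least.

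The roles also shifted against each other. Summed LIM-only transcripts fell from a mean of 27.8 to 7.71 FPKM, TAL1 with LYL1 from 134 to 45.7 FPKM, E proteins from 56.9 to 31.4 FPKM and SSBP genes from 70.6 to 47.7 FPKM. The ratio of LDB1 to the LIM-only sum was 4.82 and 4.36 in sh-NC but 1.33 and 1.23 in sh-LDB1, so LDB1 transcripts still outnumbered those of its LIM-only partners per length. Against the SSBP sum the LDB1 ratio was 1.93 and 1.68 in sh-NC but 0.213 and 0.201 in sh-LDB1, which turned the order of the adaptor and its stabilisers around. E-protein transcripts went from 0.441 and 0.412 of the TAL1 and LYL1 sum to 0.725 and 0.653.

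In sh-NC the members ran from LDB1 at the top through LYL1, TCF3, SSBP4, TAL1, LMO2, SSBP3, TCF12 and SSBP2 to LMO4, and no neighbours overlapped between libraries. In sh-LDB1 the order was LYL1, TCF3, SSBP4, SSBP3, LDB1, TAL1, TCF12, SSBP2, LMO2 and LMO4. Only TCF12 and SSBP2 overlapped as neighbours there. LDB1 moved from rank 1 to rank 5 and LMO2 from rank 6 to rank 9. These ranks are by deposited FPKM and depend on the gene lengths used. Fitted lengths were well short of the annotated ones for LDB1 and for SSBP3 (5227 against 6930 bases).

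The inhibitors of E proteins moved the opposite way. ID proteins are HLH proteins with no DNA-binding region that hold E proteins away from TAL1 and from DNA. ID1 had 32.0 and 30.6 FPKM in sh-NC and 185 and 207 FPKM in sh-LDB1 (log2 fold change 2.60, SE 0.0686, limma adjusted p = 8.10e-05). ID3 had 4.57 and 4.60 FPKM in sh-NC and 69.5 and 73.3 FPKM in sh-LDB1 (log2 fold change 3.69, SE 0.0492, limma adjusted p = 6.77e-05). Both were many times their control level in each knockdown library. ID2 also rose, by a log2 fold change of 0.85 (limma adjusted p = 0.000485), and ID4 had no value here. All 3 ID genes tested were therefore higher, where 29.9% of all genes tested were. Past the fold threshold were 2 of them, where 9.5% of all genes were higher. The direction held under the 3 other scalings. The ratio of summed ID to summed E-protein transcripts was 0.965 and 0.990 in sh-NC but 9.16 and 10.2 in sh-LDB1.

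Among 12 listed partners and relatives of the complex, 9 were tested, with a median log2 fold change of -0.96. Lower were 8 and higher 0, where 37.4% and 29.9% of all genes tested were. Past the fold threshold were 4 of the partners, KLF1, GFI1B, GATA1 and TAL2, where 10.3% of all genes tested were lower. KLF1, an activator of the red cell programme, had 238 and 237 FPKM in sh-NC and 28.2 and 29.0 FPKM in sh-LDB1 (log2 fold change -3.01). GFI1B, a repressor that recruits KDM1A, had 31.7 and 34.5 FPKM in sh-NC and 4.71 and 4.92 FPKM in sh-LDB1 (-2.55). GATA1, which binds LMO2 and sets the site of the complex in red cells, had 227 and 222 FPKM in sh-NC and 63.3 and 61.1 FPKM in sh-LDB1 (-1.83). These 3 genes were far below their controls in both knockdown libraries.

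TAL2, a further class II bHLH gene, rested on 2 to 27 reads per library and entered the test only through its level in sh-NC, with 2.54 and 1.55 FPKM in sh-NC and 0.285 and 0.201 FPKM in sh-LDB1 (-1.27). With genes under a mean of 5 FPKM left out, TAL2 among them, 3 partners passed. GATA2, the GATA protein of earlier progenitors, differed by far less than GATA1, at -0.30 (limma adjusted p = 0.00282). The others that passed were ZFPM1 (-0.96), RUNX1 (-0.71) and TCF4 (-0.49). Like TAL2, TCF4 was tested only because of its control level, with a mean of 1.43 FPKM there and 0.726 FPKM after knockdown. TCF4 also missed the threshold under 1 of 3 other scalings (highest adjusted p = 0.053). SSBP1, a mitochondrial protein that shares only the name and the DNA-binding activity of the SSBP genes, did not pass at -0.14 (limma adjusted p = 0.242) and turned to the other sign under 1 of those scalings. GATA3 and ERG were below the level tested, and FLI1 had no value here.

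Of 13 listed cofactors, 12 were tested, 5 were lower and 6 higher, where 37.4% and 29.9% of all genes were, and the median log2 fold change was 0.28. CBFA2T3 (ETO2), a corepressor that joins the LDB1 complex in red cell precursors, was past the fold threshold. It had 26.5 and 27.8 FPKM in sh-NC and 9.07 and 9.12 FPKM in sh-LDB1 (log2 fold change -1.48, SE 0.0485, limma adjusted p = 0.000104). Its paralogue CBFA2T2 went the other way, with 2.42 and 2.55 FPKM in sh-NC and 5.33 and 5.34 FPKM in sh-LDB1 (0.86, limma adjusted p = 0.000624). IRF2BP2, a corepressor, had 18.4 and 23.8 FPKM in sh-NC against 40.3 and 44.2 FPKM in sh-LDB1, a log2 fold change of 0.98 (limma adjusted p = 0.00319), just short of the fold threshold. Under the 3 other scalings it was 1.09 to 1.15 and passed.

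Of 14 listed textbook target genes of the complex in red cells, 11 were tested. All 11 were lower past the fold threshold, where 10.3% of all genes tested were, with a median log2 fold change of -3.20. KIT and SLC4A1 had means below 1 FPKM in sh-LDB1 and entered the test through the controls. HBZ, an embryonic alpha-like globin, had 1543 and 1600.2 FPKM in sh-NC and 58.9 and 61.3 FPKM in sh-LDB1 (-4.69). SLC4A1, the band 3 anion exchanger, had 26.5 and 24.4 FPKM in sh-NC and 0.487 and 0.502 FPKM in sh-LDB1 (-4.15). NFE2, a bZIP activator of globin genes, had 163 and 153 FPKM in sh-NC and 20.2 and 21.0 FPKM in sh-LDB1 (-2.88). The HBA1 and HBA2 genes, and likewise HBG1 and HBG2, are near-identical copies, so the split of reads within each pair is uncertain. The tested targets were left at 1.94% to 17.0% of control. LDB1, at 7.73%, lay in that range, and the other 9 members, from LMO2 at 18.7% upwards, did not.

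Of 16 other genes with LIM domains or a link to LIM proteins, 9 had values and 3 were tested. RLIM, a ubiquitin ligase that marks LDB1 for degradation, rose by a log2 fold change of 0.47 (limma adjusted p = 0.0012), with 8.61 and 8.64 FPKM in sh-NC and 12.3 and 12.4 FPKM in sh-LDB1. LHX6, a LIM-homeodomain gene, was lower at -0.87 (limma adjusted p = 0.00139), and ISL2 had a log2 fold change of 0.0026 (limma adjusted p = 0.99). LMO3, the LIM-only paralogue of neural tissue, rested on at most 2 reads in any library and was not tested.

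**Figure D4:**
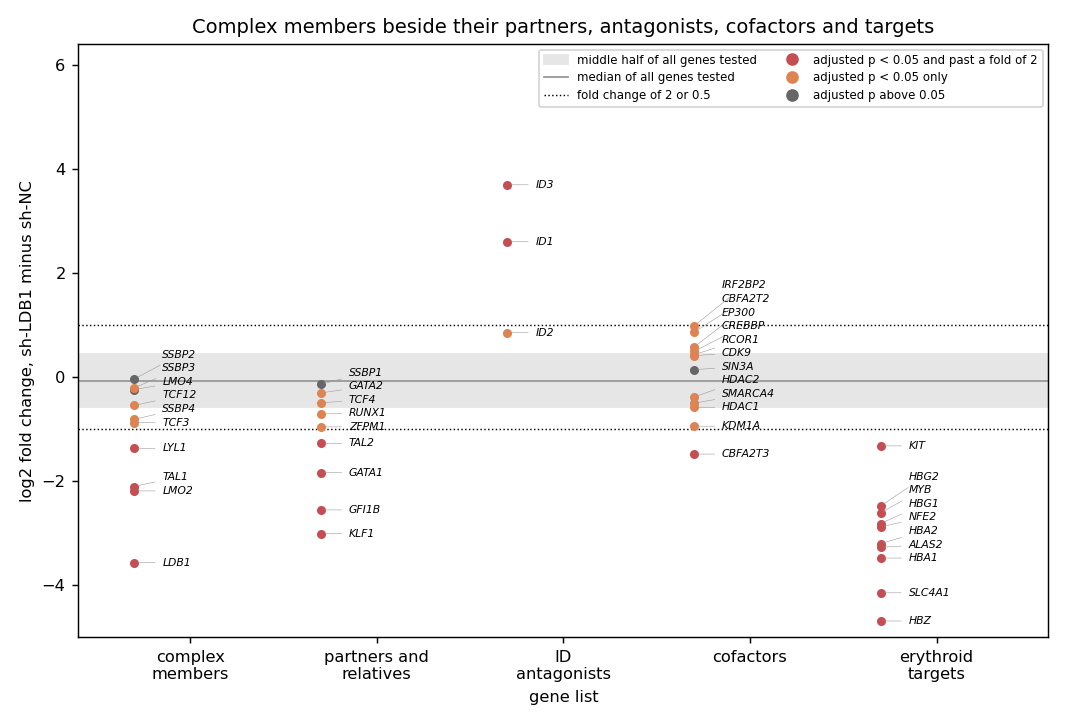
Log2 fold change, sh-LDB1 minus sh-NC, of every tested complex gene and of tested genes of 4 further lists, with each plotted gene named, colour giving the limma call and the band giving the quartiles of all genes tested. No complex gene or partner lies above 0, the 3 ID genes do, and the 10 targets plotted lie below the lower dotted line, while cofactors spread to both sides. The signs of SSBP2 and SSBP1 depend on the scaling.

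The patterns most like those of LDB1 and LMO2 were sought among 4838 other genes at a mean level of 10 FPKM or more, by the Euclidean distance of centred log2(FPKM + 1) values over the 4 libraries. With LDB1, the nearest were TMOD1 (distance 0.201), GYPE (0.283), HBBP1 (0.289), FAM83A (0.29) and RHAG (0.321). Of these, TMOD1 encodes a tropomodulin of the membrane skeleton, GYPE a glycophorin, HBBP1 is a beta-globin pseudogene and RHAG carries the Rh complex of the red cell membrane. TMOD1 went from a mean of 25.4 to 1.45 FPKM and RHAG from 246 to 24.0 FPKM. With LMO2, the nearest were SLC7A8 (0.0374), AP2M1 (0.0566), TMED10 (0.0642), CHD1L (0.065) and PEBP1 (0.0688). SLC7A8, an amino acid transporter, went from a mean of 38.3 to 7.59 FPKM. A fold near that of LDB1 or LMO2 follows from the way these genes were chosen and is no separate result.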

How the data were processed

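RNA-seq was performed on 2 sh-NC and 2 sh-LDB1 libraries, made from total RNA with an Illumina TruSeq kit. The submitters' processing notes name HISAT2 2.0.5 and hg38. The counting tool, gene annotation and strand setting were not given in the sources used here. The authors deposited 1 table of FPKM per gene and library, with 0 columns of no sample. Replicates were not pooled. All 4 libraries had the same median ratio to the geometric mean, 1.0083, which shows that the libraries had been scaled by a median of ratios before deposit. Every gene's values could be written as whole reads (tolerance 0.002 of a read), with totals of 16838888 and 15431219 reads in sh-NC and 15482940 and 14540172 reads in sh-LDB1. These totals rest on gene lengths from GENCODE 44 (28193 genes matched by ID), and 86.1% of fitted lengths were within 10% of annotated ones. Replicates differed by more than read sampling, the chi-square per gene being 4.55 (sh-NC) and 2.28 (sh-LDB1), and were kept as separate samples.

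Genes whose mean was 1 FPKM or more were tested with limma 3.58.1 (R 4.3.3, eBayes with a trend, no block) on log2(FPKM + 1), a scale that understates the change of low genes. P-values were adjusted by Benjamini-Hochberg over all 13300 genes tested. Calls needed an adjusted p below 0.05 and, where stated, a fold above 2 or below 0.5. The steps were tested on simulated data. Shares and ratios were computed in Python 3.11.15 with scipy 1.17.1. The members and lists were chosen with earlier results of these data known. Named were the 10 members, the partners, antagonists and cofactors past the fold threshold, up to 3 genes of any other list by smallest p, and the 5 genes nearest in pattern to LDB1 and to LMO2. CBFA2T2, IRF2BP2, ID2 and the remaining partners were named after their values were seen, as were CSF3R, LYZ and PRTN3 with EPOR, CEBPE, ELANE and CD3D. Values of 1 listed target are not reported here.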

Additional observations from a re-analysis of the deposited data

How the results depend on the processing

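With no fold threshold, 8 rather than 4 members were lower, LDB1 counted in both. The count past the fold threshold was 4 under each of the other settings run, which were pseudocounts of 0.1 and 0.01 FPKM, no filter or a mean of at least 5 FPKM, 3 scalings, no variance trend, voom on recovered reads, limma's treat and each library left out. Treat tests against a fold change of 2, so it was not among the settings for the count without a fold threshold. That count, at an adjusted p below 0.05, ran from 7 to 9 with all 4 libraries kept. SSBP2 changed sign when scaled by summed FPKM (0.11), by quantiles (0.020) and by total reads (0.058), and ran from -0.12 to 0.045 with each library left out, above 0 only without sh-NC replicate 2. SSBP3 was -0.042 (adjusted p = 0.44), -0.11 (0.101) and -0.10 (0.116) under these scalings. LMO4 passed with voom alone (-0.30, adjusted p = 0.0236). The cause was not tested. The filter at 5 FPKM leaves out LMO4 and SSBP2. Scaling by summed FPKM moved the median of all genes by 0.147, and the lower share of calls past the fold from 52.0% to 38.5% (42.9% by total reads). With treat set aside and all 4 libraries kept, LDB1, LMO2, TAL1, LYL1, TCF3, TCF12 and SSBP4 passed in the same direction under each setting. Their sign also held with each library left out. Under treat only 4 members passed. The log2 fold change of LDB1 ran from -3.69 to -3.40. Partners past the fold numbered 3 to 5, ID genes 2 to 3, lower cofactors 1 and targets 10 to 11. Higher cofactors past the fold numbered 0 in the reported fit, 2 with either other pseudocount or voom, 1 under each of the 3 scalings, and 0 to 1 with each library left out. The differences in paralogue share kept their direction with each library left out, that of LMO2 from -29.1 to -26.9 points.

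The replicate numbers are shared between groups, but deviations of same-numbered libraries correlated at only 0.0196 over 13300 genes, and no label pairs them. With a replicate block, 4 members were lower past the fold and 8 at an adjusted p below 0.05. With 2 libraries a group and an unnamed hairpin, off-target effects of the shRNA cannot be told apart from those of LDB1 loss, and TAL2 rests on few reads.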
